A study of Mus musculus with 6 samples.

Results

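Open chromatin around the 5 C/EBP genes Cebpa, Cebpb, Cebpd, Cebpe and Cebpg was examined in murine MLL-AF9 leukemia cells treated with or without MMF. All ATAC-seq peaks that overlapped a gene body or the 60 kb on either side of it were taken (mm10, GENCODE M21), which gave 85 of the 112852 regions of the whole series and 363 of its 438111 peaks. The windows held 23 regions for Cebpa, 25 for Cebpb, 9 for Cebpd, 21 for Cebpe and 16 for Cebpg. As Cebpa and Cebpg are neighbours, 9 regions lay in both of their windows. The rule uses position alone and does not tie a peak to the gene it was found near.

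The study compared 3 control with 3 MMF-treated samples of L-GMP cells, the granulocyte-macrophage progenitor-like leukemia stem cells (LSCs) of MLL-AF9 acute myeloid leukemia. MMF is mycophenolate mofetil, an inhibitor of IMPDH, the rate-limiting enzyme for making guanine nucleotides. All samples are labelled as blood, cell type AML LSCs and genotype WT, and the cells were cultured with mouse IL3. The labels give 24 h of treatment and name no vehicle for the control, and the study's methods and legends differ in the dose and time of MMF. Cells carrying the introduced MLL-AF9 fusion came from leukemic mice, so controls carry it too. No label says whether the replicates were separate cultures, so p-values measure only the spread between these samples.

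C/EBP proteins are basic leucine zipper factors that bind DNA as dimers, with one another or with related factors such as ATF4. C/EBPα starts the granulocyte-macrophage program, C/EBPε drives late granule genes of neutrophils, and C/EBPβ and C/EBPδ rise in stress and inflammatory responses. C/EBPγ lacks a strong activation domain and acts mainly as a partner of the others. In mice, a Cebpa enhancer is known downstream of the gene, and a Cebpe enhancer several kilobases from its start carries C/EBP sites.

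The sequences below are 200 bp windows around summits, read from the plus strand of GRCm38, for the regions on which the results turn. Capitals mark matches on either strand to 7 motifs. The C/EBP motif was searched as TTGCNNAA. The RUNX motif was AACCACA, and PU.1, an ETS factor of myeloid cells, was searched as GAGGAAGT. The AP-1 motif was TGANTCA. The composite bound by C/EBP and ATF4 dimers was TGATGCAA. For GATA factors, which act in erythroid cells and mast cells, the letters were AGATAA, and the insulator factor CTCF was searched by its consensus. Matches to different motifs may overlap. The first 4 are regions that rose with MMF, chosen by the lowest adjusted p at Cebpe (a pair), Cebpb and Cebpa, and then follow the Cebpa element, both summits of the Cebpe element and the peak gained at the Cebpe start.
Cebpe −56.3 kb, chr14:54768401-54768600: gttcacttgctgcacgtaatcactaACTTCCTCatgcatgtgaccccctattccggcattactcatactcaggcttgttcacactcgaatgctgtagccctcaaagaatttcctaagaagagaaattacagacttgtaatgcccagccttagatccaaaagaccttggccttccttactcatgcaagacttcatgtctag
Cebpe −42.6 kb, chr14:54754636-54754835: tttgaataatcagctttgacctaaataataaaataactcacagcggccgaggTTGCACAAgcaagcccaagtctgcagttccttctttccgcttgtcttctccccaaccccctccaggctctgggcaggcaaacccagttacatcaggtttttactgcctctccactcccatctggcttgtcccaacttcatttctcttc
Cebpb −32.2 kb, chr2:167656642-167656841: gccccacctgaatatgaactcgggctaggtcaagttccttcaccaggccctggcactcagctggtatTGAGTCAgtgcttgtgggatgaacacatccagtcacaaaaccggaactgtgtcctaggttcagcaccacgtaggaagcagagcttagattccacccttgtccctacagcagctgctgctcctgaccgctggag
Cebpa +8.0 kb, chr7:35127227-35127426: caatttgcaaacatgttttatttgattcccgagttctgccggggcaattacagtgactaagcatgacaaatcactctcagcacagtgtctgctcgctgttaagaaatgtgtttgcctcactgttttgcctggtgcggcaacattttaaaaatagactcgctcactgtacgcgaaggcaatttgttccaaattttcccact
Cebpa +37.3 kb, chr7:35156537-35156736: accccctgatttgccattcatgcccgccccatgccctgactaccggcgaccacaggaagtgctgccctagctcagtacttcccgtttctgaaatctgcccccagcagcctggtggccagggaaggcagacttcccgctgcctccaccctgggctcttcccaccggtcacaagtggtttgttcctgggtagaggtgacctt
Cebpe +6.1 kb, chr14:54705973-54706172: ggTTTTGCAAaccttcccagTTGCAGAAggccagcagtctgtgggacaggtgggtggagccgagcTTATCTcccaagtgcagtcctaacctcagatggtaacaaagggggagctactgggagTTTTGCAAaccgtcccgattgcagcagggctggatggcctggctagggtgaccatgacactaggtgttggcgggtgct
Cebpe +5.5 kb, chr14:54706609-54706808: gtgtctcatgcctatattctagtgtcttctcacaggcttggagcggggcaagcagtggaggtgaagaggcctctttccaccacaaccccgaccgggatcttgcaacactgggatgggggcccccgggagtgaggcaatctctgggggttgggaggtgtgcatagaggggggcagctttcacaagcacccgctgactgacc
Cebpe −0.3 kb, chr14:54712375-54712574: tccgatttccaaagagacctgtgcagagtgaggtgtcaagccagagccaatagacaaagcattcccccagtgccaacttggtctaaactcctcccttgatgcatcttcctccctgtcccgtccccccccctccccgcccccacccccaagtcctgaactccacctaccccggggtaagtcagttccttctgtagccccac

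The Cebpe window 6.1 kb downstream of the start held 3 C/EBP matches and a GATA match, where 121 of the 112852 regions (0.107%) had 3 or more C/EBP matches around their main summit. Its window was picked after its position was known, so this is a description. Cebpe −42.6 kb held 1 C/EBP match, Cebpe −56.3 kb a PU.1 match and Cebpb −32.2 kb an AP-1 match. The windows of Cebpa +8.0 kb, Cebpa +37.3 kb, Cebpe +5.5 kb and Cebpe −0.3 kb held none of the 7 motifs, which says only that these letters are not in those 200 bp.

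Over all 85 regions, the C/EBP motif was found in 10 (11.8%), against 14.9% of all regions. AP-1 was the most frequent, in 16 of 85 (18.8%, against 16.1%), followed by CTCF in 13 (15.3%, against 14.2%), PU.1 in 6 (7.06%, against 8.27%) and RUNX in 4 (4.71%, against 10.8%). The C/EBP-ATF composite was found in 2 regions (2.35%, against 1.64%) and GATA in 1 (1.18%, against 6.94%). In windows of 500 bp the counts were 21 for C/EBP, 10 for RUNX and 13 for GATA, against 25.3%, 17.5% and 20.7% of all regions.

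The authors called peaks on each sample separately. Whole lists ran from 58496 to 63911 peaks in control and from 80893 to 86556 with MMF. At the C/EBP loci there were 51, 48 and 51 peaks in control samples 1, 2 and 3, against 73, 75 and 65 in MMF samples 1, 2 and 3 (two-sided exact permutation test, p = 0.1, which is the lowest value possible with groups of 3). The ratio of the group means was 1.42 at the loci and 1.37 over the whole lists. Per gene, control and MMF means were 10.0 ± 1.0 and 14.7 ± 2.9 peaks at Cebpa, 18.3 ± 2.1 and 23.3 ± 0.58 at Cebpb, 14.3 ± 0.58 and 20.0 ± 2.0 at Cebpe, and 5.33 ± 0.58 and 10.0 ± 2.6 at Cebpg (SD, n = 3, exact permutation test p = 0.1 each, before any correction over the loci). At these 4 genes the groups did not overlap. Peaks in the 9 regions of both the Cebpa and Cebpg windows were counted for each gene, so the results at Cebpa and Cebpg are not separate. At Cebpd it was 3.67 ± 1.2 in control and 7 ± 1.7 with MMF, and the groups touched (exact permutation test, p = 0.2). With lists of equal length, the 58496 peaks of lowest p from each, the differences shrank to 1.33 peaks at Cebpa, 2 at Cebpb, 0.333 at Cebpd, 0 at Cebpe and 1.33 at Cebpg.

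**Figure D1:**
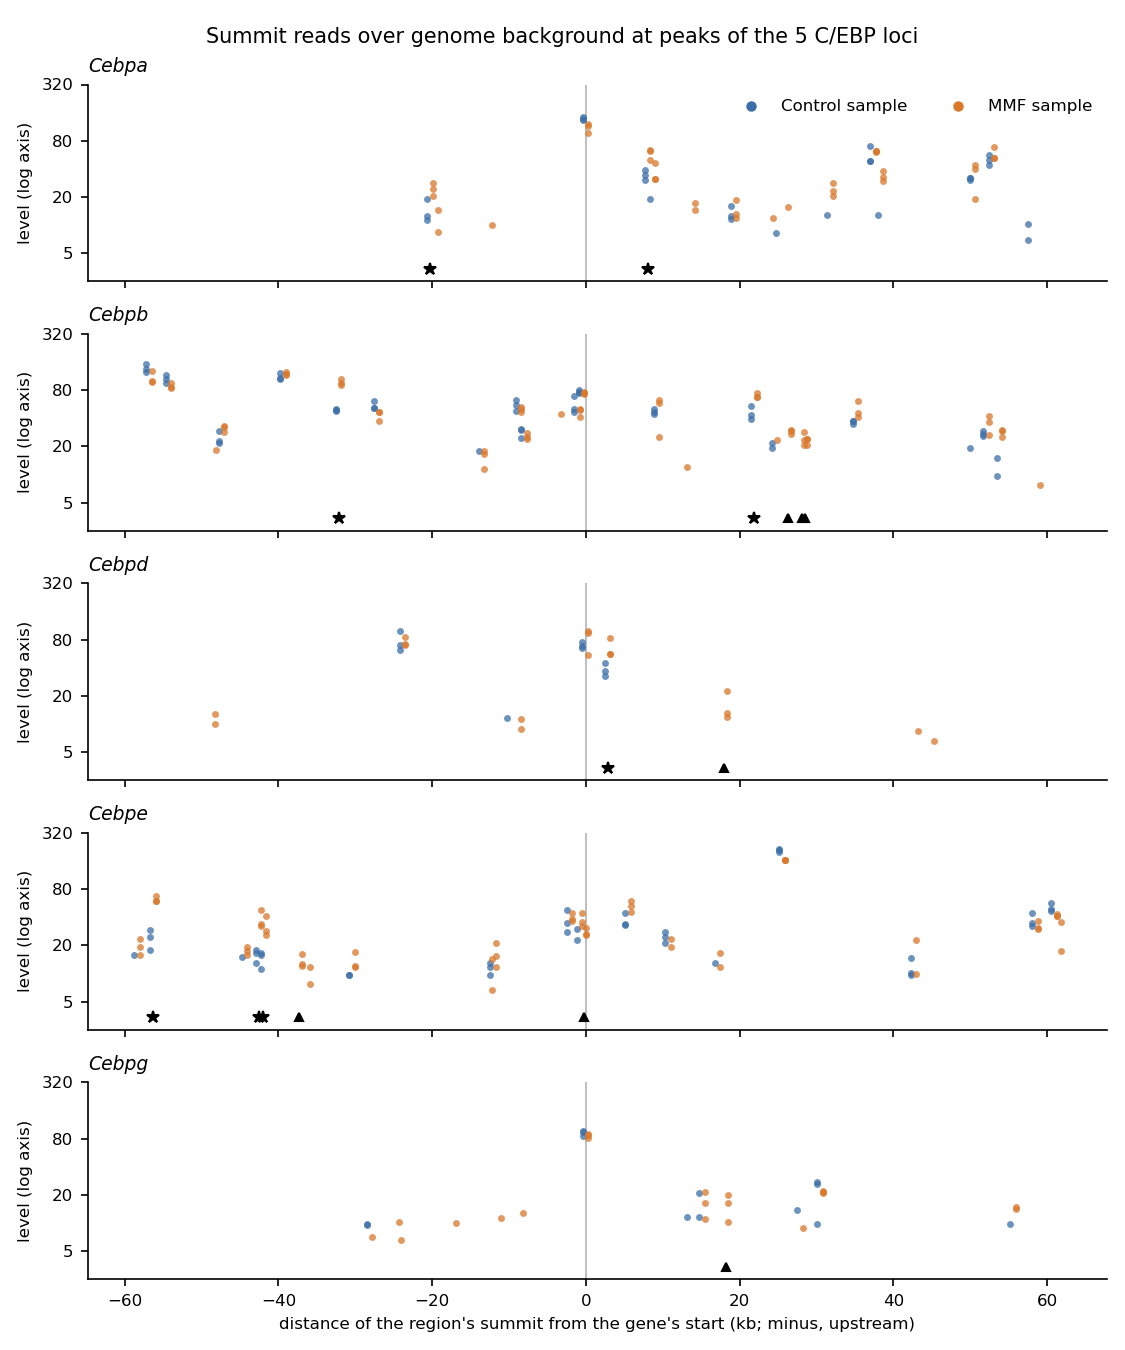
Level of every peak region by sample (y axis, summit reads over the genome background, log axis) against the distance of its summit from the start of the gene (x axis, kb) in 5 panels; blue points are control and orange points MMF samples, set slightly apart, stars mark the 8 regions called higher with MMF and triangles the 7 gained. The 9 regions in both the Cebpa and Cebpg windows are drawn once, with the nearer gene. Called and gained regions lay away from the promoters, except the gained region at the Cebpe start.

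Of the 85 regions, 35 had a peak in all 6 lists, 7 had a peak in all 3 MMF lists and no control list and are called gained, and 0 had the opposite pattern. Another 21 had a peak in some MMF lists only, 5 in some control lists only, and 17 in both groups but not all lists. Over the whole series 6.0% of regions were gained and 0.182% were lost, so 7 of 85 (8.24%) and 0 of 85 were near the background. Without MMF sample 3 the gained regions numbered 13 (15.3%, against 9.34% of all regions), and without any other sample 7 to 10 (8.24% to 11.8%, against 7.37% to 8.25%). Without control sample 3 there was 1 lost region (1.18%, against 0.518%). With lists of equal length 1 of 71 regions was gained and 0 lost, and over the whole series 6772 gained and 205 lost became 2020 gained (2.35%) and 1175 lost (1.37%).

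The gained regions were at Cebpe (−0.3 kb and −37.3 kb), Cebpb (+26.3, +28.1 and +28.4 kb), Cebpd (+18.0 kb) and Cebpg (+18.2 kb). The 3 Cebpb regions lay within 3 kb of one another in the lincRNA gene A530013C23Rik. Cebpb +26.3 kb reached 29.7, 26.9 and 29.6 in MMF samples 1, 2 and 3, where the level is the number of reads over the summit divided by the number expected from the genome background. Cebpb +28.1 kb reached 20.9, 28.3 and 23.7, and Cebpb +28.4 kb 24.2, 24.1 and 20.7. All 3 were of like height in the 3 MMF samples.

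The gained region over the Cebpe start (chr14:54712066-54712625) reached 30.8, 25.5 and 26.6 in MMF samples 1, 2 and 3. It joined a pair of summits about 300 bp apart, at the start itself in MMF samples 2 and 3 and 301 bp upstream in MMF samples 1 and 2. Cebpd +18.0 kb, in an intron of Spidr, reached 13.2, 22.7 and 11.8, and Cebpg +18.2 kb, in an intron of Pepd, 16.5, 19.8 and 10.3. Cebpe −37.3 kb, in an intron of Slc7a8, was at 12.1, 12.8 and 16.3. A control list without a peak can still hold reads under the authors' threshold, and with lists of equal length only Cebpb +28.1 kb kept a peak in all 3 MMF lists and none in control.

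The promoters of Cebpa, Cebpb, Cebpd and Cebpg had a peak in all 6 lists, and 0 of the 4 were called (limma, and 0 at an unadjusted p under 0.05). The Cebpe start had none in the control lists and a gained region in the MMF lists, and the region 0.9 kb upstream had a peak in 5 of 6 lists. In control samples the Cebpa promoter was the highest at 137.8 ± 6.5, followed by Cebpg at 91.4 ± 5.3, Cebpb at 77.4 ± 2.2 and Cebpd at 69.6 ± 4.9 (SD, n = 3). Cebpb and Cebpd were next to each other in this order of level, and their values touched. With MMF, Cebpa was again the highest at 111.4 ± 13.6, while Cebpg (86.7 ± 4.8), Cebpd (82.4 ± 24.2) and Cebpb (74.9 ± 2.4) were less apart, and the spread of Cebpd took in both others. The Cebpe promoter was the lowest in every sample that had its peak.

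At the Cebpa promoter (chr7:35118081-35119718), control samples 1, 2 and 3 were at 131.7, 144.6 and 137.0 and MMF samples 1, 2 and 3 at 122.1, 116.2 and 96.1. All MMF values were below all control values. The difference was −0.31 ± 0.17 (log2, SE) and did not pass the test (limma, adjusted p = 0.23; exact permutation p = 0.1). It was called lower when the median of all shared regions was set to 0 in each sample (limma adjusted p = 0.027). So were 28.7% of all shared promoter regions. It was also called lower with the eBayes trend, in which limma lets the variance follow the mean level (adjusted p = 0.049).

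The Cebpd promoter was at 65.9, 75.2 and 67.7 in control samples and at 93.5, 99.2 and 54.7 in MMF samples. MMF samples 1 and 2 were above all controls and MMF sample 3 below them, so the groups overlapped (0.20 ± 0.23 log2, SE, limma adjusted p = 0.60). Without MMF sample 3 the difference was 0.47, and it turned negative under 3 other scalings. The Cebpb promoter region (79.6, 75.2 and 77.4 in control, 77.0, 72.2 and 75.4 with MMF) and the Cebpg promoter (93.3, 95.5 and 85.5 against 88.0, 90.7 and 81.3) differed by −0.05 ± 0.15 and −0.08 ± 0.16 (log2, SE, limma adjusted p = 0.86 and 0.78). The sign of both turned under another scaling. The Cebpb region spanned 2105 bp, with 2 or 3 peaks in each list. Its highest peak lay 593 bp upstream of the start in control sample 1 and 295 bp downstream in MMF sample 1. These Cebpb values therefore do not follow a single summit.

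The Cebpe promoter region of highest mean level, 0.9 kb upstream of the start, was at 30.2 in control sample 1 and 22.6 in control sample 3, with no peak in control sample 2. MMF samples were at 44.0, 35.4 and 32.5, all above both controls. As it was not in all 6 lists it was not tested. A further Cebpe region 2.1 kb upstream was in all 6 lists at 27.4, 34.7 and 48.4 in control and 36.3, 43.9 and 38.4 with MMF, and the groups overlapped (limma, adjusted p = 0.71).

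**Figure D2:**
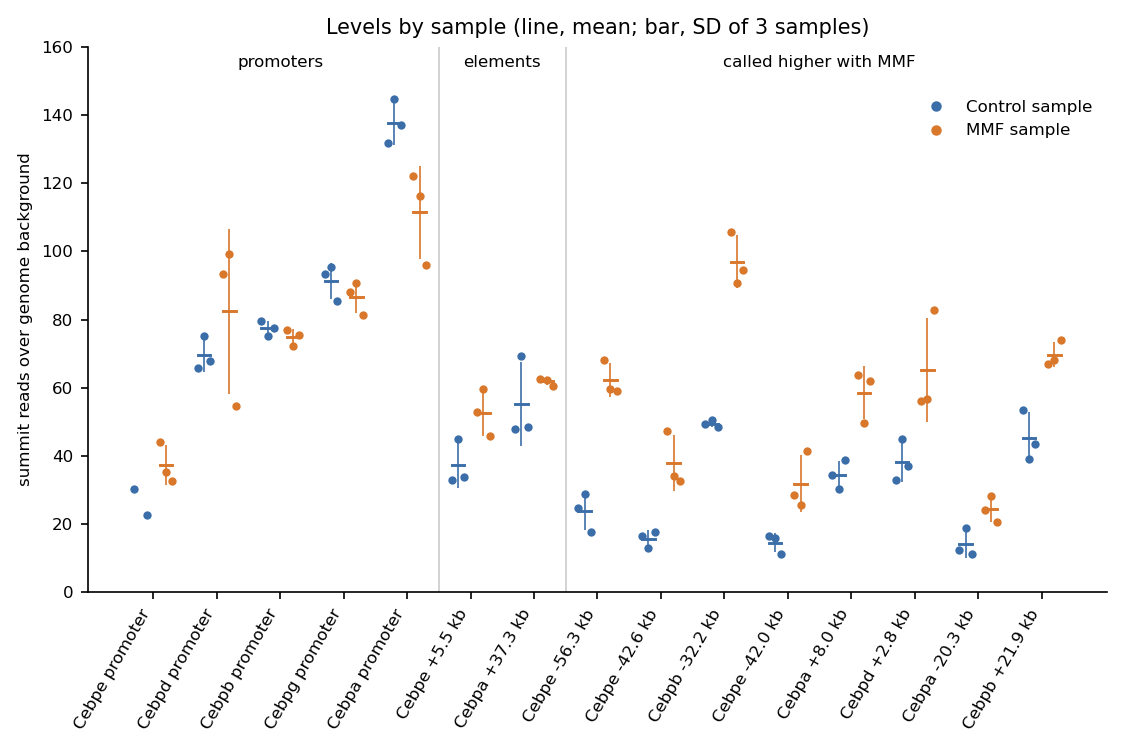
Level in each sample (y axis, summit reads over genome background) of the 5 promoter regions, the Cebpe and Cebpa elements and the 8 regions called higher; blue, control, orange, MMF, line, mean, bar, SD of 3 samples, with no mean for the 2 controls of the Cebpe promoter. The Cebpa promoter sits above 130 in all controls, and at Cebpe −56.3 kb the MMF samples (59.1 to 68.2) lie well above the controls (17.7 to 28.9).

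Among the 35 regions in all 6 lists, 8 were called higher with MMF (22.9%, against 18.6% of the 41182 regions so tested) and 0 lower (against 0.969%), by limma on the log2 level with Benjamini-Hochberg adjustment over all 41182 regions at 0.05. At an unadjusted p under 0.05 the counts were 9 and 0 of 35, against 11904 and 1534 of all 41182 regions. The count of 8 was 5 without control sample 3 or any 1 of the MMF samples, and 6 without control sample 1 or 2. The share of all regions called in those fits is not given here, so these counts do not tell the loci from the whole series. In the fit with all 6 samples, the share called at the C/EBP loci was near the background. Every MMF sample lay above every control sample in 10 of 35 (28.6%, against 29.1%) and below in 5 of 35 (14.3%, against 7.68%). The median difference was 0.14 over the 35 regions and 0.17 over all shared regions (log2). When the median of each sample was set to 0, 4 of 35 were called higher (against 6.9% of all) and 6 lower (against 13.9%), where over all regions 7643 higher and 399 lower turned into 2841 higher and 5715 lower. Ranks among the shared regions called 0 higher (against 1.44%) and 1 lower (against 0.425%), the Tmem189 promoter at Cebpb −27.2 kb.

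The 3 largest differences lay upstream of Cebpe, in introns of Slc7a8, which encodes an amino acid transporter. Cebpe −56.3 kb (chr14:54768131-54768931) was at 24.7, 28.9 and 17.7 in control samples 1, 2 and 3, from 18, 20 and 11 reads, and at 68.2, 59.5 and 59.1 in MMF samples 1, 2 and 3, from 62, 42 and 40 reads. The groups were well apart. It rose 2.67-fold (1.41 ± 0.20 log2, SE, limma adjusted p = 0.0023), more than 98.5% of all shared regions. This region carries the PU.1 match printed above.

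Cebpe −42.6 kb (chr14:54754528-54755221) was at 16.5, 13.0 and 17.7 in control and 47.3, 34.0 and 32.5 with MMF. It rose 2.40-fold (1.26 ± 0.20 log2, SE, limma adjusted p = 0.0033), and it carries a C/EBP match. Its neighbour Cebpe −42.0 kb was at 16.5, 15.9 and 11.3 in control and 28.6, 25.5 and 41.4 with MMF, a 2.17-fold rise (1.12 ± 0.23 log2, SE, limma adjusted p = 0.0089). The groups did not overlap at either. MMF sample 1 was the highest at the first and MMF sample 3 at the second.

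At Cebpb, the region 32.2 kb upstream (chr2:167656474-167657190), in introns of Tmem189 and the read-through Gm20431, was at 49.4, 50.6 and 48.4 in control and 105.6, 90.7 and 94.6 with MMF. The controls were close to one another, and the rise was 1.96-fold (0.97 ± 0.16 log2, SE, limma adjusted p = 0.0034). Together with the 3 Cebpe regions it was called higher also with sample medians set to 0 and with each sample left out in turn. All 4 lost the call with ranks among the shared regions (adjusted p = 0.066 to 0.29). Cebpe −42.0 kb also lost it with ranks by fold (0.13) and by −log10 p (0.085), Cebpe −42.6 kb with ranks by fold (0.062), and Cebpb −32.2 kb when the reads of the surrounding 10 kb were used (0.21). Cebpb +21.9 kb, which holds a C/EBP match, was at 53.5, 39.1 and 43.5 in control and 67.1, 68.0 and 73.9 with MMF (0.63 ± 0.18 log2, SE, limma adjusted p = 0.031). Its call held without control sample 1 and was lost without any other sample (adjusted p up to 0.095), with sample medians set to 0 (0.28 log2, adjusted p = 0.26), with ranks by fold (0.35), by −log10 p (0.084) and among shared regions (0.88), and with the replicate number as a block (0.052).

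At Cebpa, 2 of 7 shared regions were called higher (28.6%, against 18.6% of all shared regions and 24.5% of those outside promoters). Cebpa +8.0 kb (chr7:35126836-35127467) was at 34.3, 30.4 and 38.7 in control and 63.8, 49.6 and 62.1 with MMF (0.76 ± 0.18 log2, SE, limma adjusted p = 0.016). Beside it, Cebpa +8.7 kb had a peak in 1 control list (18.8) and all 3 MMF lists (46.2, 31.2 and 31.0). Cebpa −20.3 kb, which also lies in the Cebpg window, rose from 12.3, 18.8 and 11.3 to 24.2, 28.3 and 20.7 (0.81 ± 0.22 log2, SE, limma adjusted p = 0.030), from 7 to 22 reads a sample. The call at +8.0 kb was lost without control sample 2, MMF sample 1 or MMF sample 3 (adjusted p up to 0.060). The one at −20.3 kb was lost without control sample 1 or 3 or MMF sample 1 or 2 (adjusted p up to 0.11), and neither was called with sample medians set to 0.

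At Cebpd, the region 2.8 kb downstream of the start, in the 3′ UTR exon of the gene, was at 32.9, 44.8 and 37.1 in control and 56.1, 56.7 and 82.8 with MMF. MMF sample 3, the lowest at the Cebpd promoter, was the highest here. The rise of 0.75 ± 0.21 (log2, SE, limma adjusted p = 0.030) was lost without control sample 1 or 3 or MMF sample 2 or 3 (adjusted p up to 0.098) and with sample medians set to 0. Of the 2 shared regions assigned to Cebpg, 0 were called (limma, and 0 at an unadjusted p under 0.05), against 18.6% of all shared regions called higher and 0.969% lower.

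**Figure D3:**
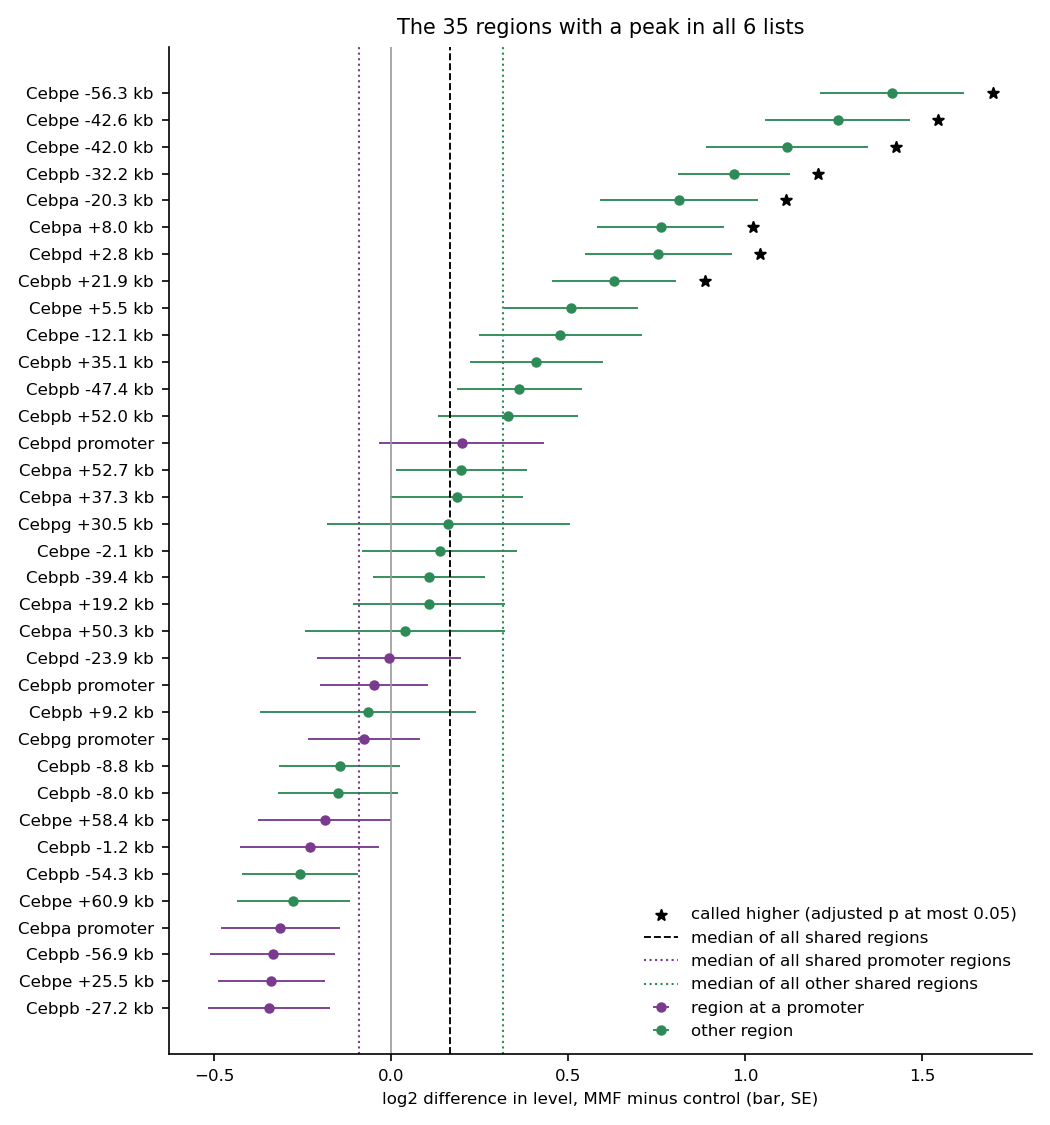
Difference in level (x axis, log2, MMF minus control, bars, SE) of the 35 regions with a peak in all 6 lists, ordered by size; purple, regions at a promoter, green, other regions, stars, called higher. The dashed line is the median of all 41182 shared regions (0.17) and the dotted lines those of promoter regions (−0.09) and other regions (0.32); the 8 called regions are all green and range from 0.63 to 1.41.

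The called regions were all outside promoters. Of 10 shared regions of the loci within 1000 bp of a transcription start of any protein-coding gene, 0 were called by limma in either direction (0 at an unadjusted p under 0.05) and the median difference was −0.21 (log2), and of the 25 others 8 were called (32.0%) with a median of 0.33. Over all shared regions the same split was 3.25% of promoter regions and 24.5% of other regions, with medians of −0.09 and 0.32. The size of the difference also moved with the level of a region over the whole series, with medians of 0.31, 0.34, 0.21 and −0.07 for 4 equal bins from the lowest to the highest mean level. The part of the level in these differences was not tested. Several of the highest regions near the C/EBP genes lie at promoters of neighbouring genes, such as Acin1 and 1700123O20Rik at Cebpe +25.5 kb, the highest region of all (200.3, 209.7 and 212.8 in control, 162.8, 165.8 and 164.1 with MMF, −0.34 log2, limma adjusted p = 0.15). Ube2v1 at Cebpb −56.9 kb was at 150.9, 134.5 and 125.8 in control and 101.2, 128.9 and 97.6 with MMF, with overlapping groups (limma adjusted p = 0.23).

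The Cebpa element at +37.3 kb was at 48.0, 69.4 and 48.4 in control and 62.7, 62.3 and 60.6 with MMF. Control sample 2 was the highest of all 6, and the summit did not differ beyond the spread (0.18 ± 0.19 log2, SE, limma adjusted p = 0.54). The sign of the difference turned with sample medians set to 0, with ranks by fold and with ranks among shared regions. Some nearby regions had a peak in more MMF than control lists, where whole lists were 1.37 times as long with MMF. Cebpa +38.3 kb was in 1 control list at 12.9 and in all 3 MMF lists at 33.0, 38.2 and 29.6, and Cebpa +31.8 kb in 1 control list at 12.9 and in all 3 MMF lists at 23.1, 28.3 and 20.7. Others went the other way, with Cebpa +25.1 kb in 1 control list and Cebpa +57.9 kb in 2, and neither in an MMF list.

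The Cebpe element was a region of 1393 bp with a pair of summits. At the first, about 6.1 kb downstream of the start, where the window holds the 3 C/EBP matches, control samples 1, 2 and 3 were at 32.9, 44.8 and 27.4 and MMF samples at 52.8, 52.4 and 45.8. At the second, about 5.5 kb downstream, control samples were at 28.8, 24.6 and 33.9 and MMF samples 1 and 2 at 36.3 and 59.5, while MMF sample 3 had a single peak over both. All MMF samples were above all controls at each summit with a value. Taking the higher summit of each sample, the levels were 32.9, 44.8 and 33.9 against 52.8, 59.5 and 45.8 (0.51 ± 0.19 log2, SE), which did not pass the test (limma, adjusted p = 0.088). The sign turned with ranks among the shared regions.

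The local background of a peak, as the authors' peak caller set it, counts the reads within 10 kb around the summit and gives a second, broader measure, in which the reads of the peak itself are included. On this measure 8 of 35 regions were called higher (22.9%, against 19.2% of all) and 3 lower (8.57%, against 5.89%). Around the Cebpa element, reads within 10 kb were 2.92, 3.78 and 3.24 times the genome background in control and 4.77, 4.76 and 4.72 times with MMF (0.53 ± 0.10 log2, SE, limma adjusted p = 0.023). The 3 MMF samples were close to one another and all above the controls. Around Cebpe −56.3 kb they were 1.46, 1.54 and 1.19 in control and 2.84, 2.51 and 2.73 with MMF (0.95 ± 0.12 log2, SE, limma adjusted p = 0.0084). Around the Cebpe element the values were 3.66, 4.08 and 2.95 in control and 4.67, 5.25 and 4.92 with MMF, a difference that did not pass (0.48 ± 0.13 log2, SE, limma adjusted p = 0.061).

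The other regions called higher on this measure were Cebpe −2.1, −42.0 and −42.6 kb and Cebpb −39.4, +21.9 and +52.0 kb. Those called lower were the Cebpa promoter and Cebpe +25.5 and +58.4 kb. The 10 kb windows of Cebpe −42.0 and −42.6 kb largely overlap and hold mostly the same reads, so their calls are not separate. Around the Cebpa promoter the values fell from 9.51, 9.74 and 9.51 to 8.33, 8.61 and 7.52 (−0.24 ± 0.06 log2, SE, limma adjusted p = 0.042). Cebpb −32.2 kb, called at its summit, was not called within 10 kb (3.99, 4.99 and 4.74 against 5.39, 5.76 and 4.86, limma adjusted p = 0.21). The Cebpb promoter had the densest surroundings of the 5 genes, at 12.9, 15.0 and 14.0 in control and 12.5, 12.5 and 12.4 with MMF. Its mean local background over the 6 samples was above 99.1% of the values of all regions, shared or not, in each sample with a peak.

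**Figure D4:**
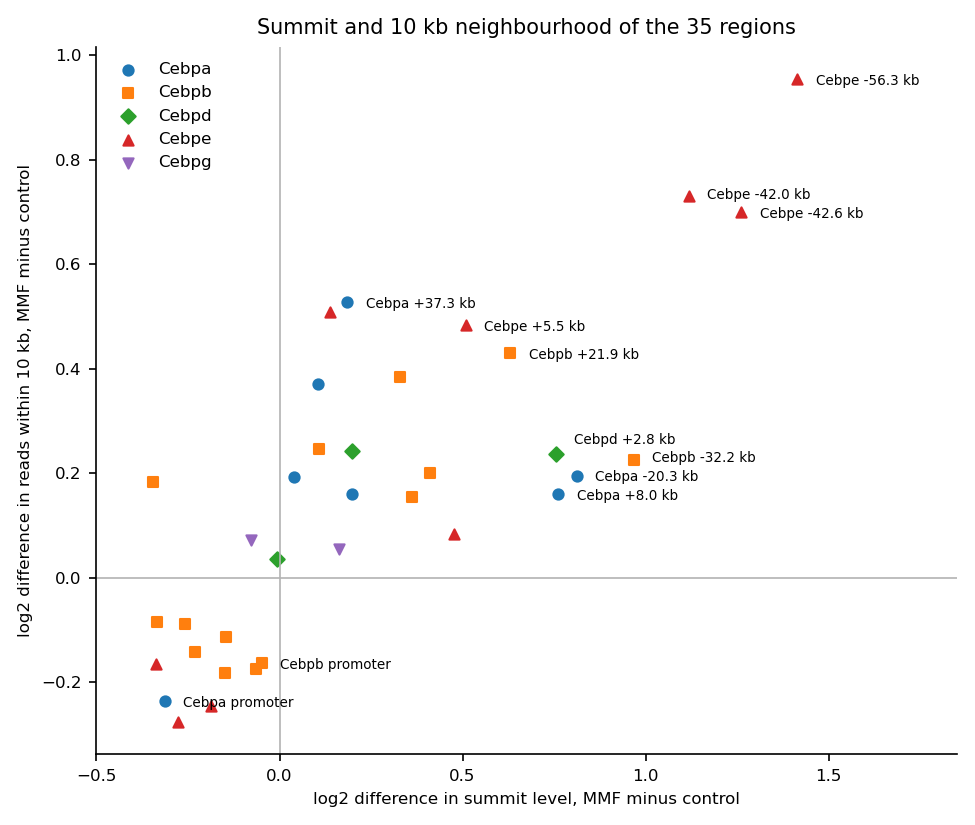
Difference in reads within 10 kb of the summit (y axis, log2, MMF minus control) against the difference in summit level (x axis, log2) of the 35 shared regions, with 1 symbol for each gene. The 3 distal Cebpe regions lie at the upper right, the Cebpa element high at a small summit difference (0.18 and 0.53), and the Cebpa promoter at the lower left.

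Promoters of genes that work with C/EBP factors were compared by lists. All 9 dimer partners and bZIP relatives had a promoter peak in all 6 lists, 0 were called (limma, with 1 higher and 0 lower at an unadjusted p under 0.05) and their median difference was −0.15 (log2). Ddit3, which encodes the inhibitory partner CHOP, was at 144.1, 160.5 and 143.5 in control and 121.0, 127.5 and 128.6 with MMF (limma adjusted p = 0.31), with all MMF samples lower. Atf3, a stress-induced relative, was at 52.1, 57.9 and 59.7 in control and 74.8, 73.7 and 82.8 with MMF (limma adjusted p = 0.077), with all MMF samples higher. Of the 4 regulators of C/EBP proteins, Trib1, Trib2, Trib3 and Cop1, 0 were called (limma, with 0 higher and 1 lower, Trib3, at an unadjusted p under 0.05, median −0.11 log2). With sample medians set to 0, 3 of the 9 and 1 of the 4 were called lower, against 28.7% of all shared promoter regions.

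Of 21 granulocyte and monocyte targets of C/EBP factors, 18 had a promoter peak in all 3 MMF lists and 12 in all 3 control lists. Among the 12 in all 6 lists, 7 were called higher and 0 lower (limma, Benjamini-Hochberg over all regions, 8 and 0 at an unadjusted p under 0.05), against 18.6% of all shared regions and 3.25% of promoter regions called higher. The median difference was 0.79 (log2), against 0.17 over all shared regions and −0.09 over promoter regions. They were Camp, S100a8, S100a9, Itgam, Lyz2, Cd177 and Csf3r. With sample medians set to 0, 3 were called higher and 1 lower, where 0.987% and 28.7% of all promoter regions were. Several of these genes were known to change in earlier results of these data, so the list is no independent evidence of a direction.

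Camp, which encodes the cathelicidin of neutrophil granules, was at 24.7, 11.6 and 27.4 in control and 61.6, 62.3 and 56.2 with MMF (1.59 ± 0.29 log2, SE, limma adjusted p = 0.0055). S100a8, a calprotectin subunit, was at 22.0, 13.0 and 14.5 in control and 38.5, 45.3 and 37.0 with MMF (1.32 ± 0.22 log2, SE, limma adjusted p = 0.0035). In both the groups were well apart. The Ltf promoter, of the granule protein lactoferrin, had no peak in control and 9.90, 12.8 and 10.3 with MMF. Csf2ra, a subunit of the GM-CSF receptor, was lower in every MMF sample (101.5, 109.9 and 112.9 against 72.6, 92.1 and 100.5, limma adjusted p = 0.27). Mpo, Prtn3 and Mmp9 had no promoter peak in any list.

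**Figure D5:**
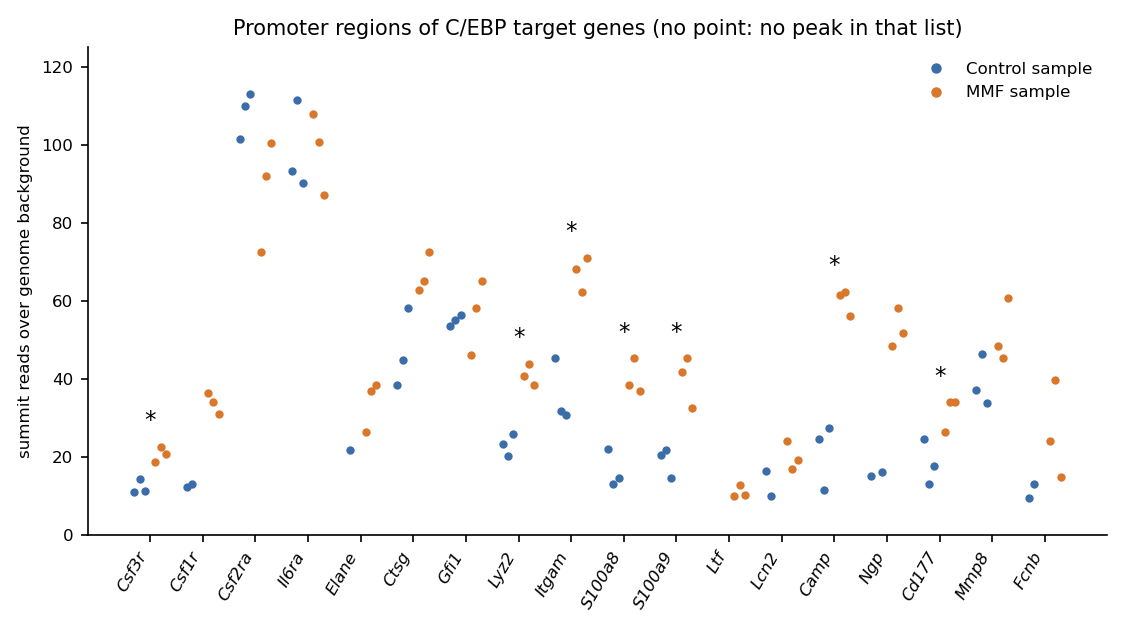
Promoter level in each sample (y axis, summit reads over genome background) of the 18 target genes with a promoter peak; blue, control, orange, MMF, asterisks, called higher, and no point where a list held no peak. The MMF points of Camp, S100a8 and Itgam lie above all their control points, and those of Csf2ra below.

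Promoter peaks of the progenitor markers Kit, Hoxa9, Meis1 and Spi1 were in all 6 lists, and those of Cd34 and Fcgr3 in 5 and 4. Of the 4, 0 were called (limma, with 1 higher and 2 lower at an unadjusted p under 0.05). Hoxa9 (63.1, 69.4 and 64.5 in control, 48.4, 53.8 and 51.7 with MMF) and Meis1 (112.5, 114.3 and 85.5 in control, 78.1, 79.3 and 76.9 with MMF) were lower in every MMF sample (limma adjusted p = 0.14 each). Both were called lower with sample medians set to 0 (limma adjusted p = 0.020 and 0.024), as were 28.7% of all shared promoter regions. Spi1, which encodes PU.1, was higher in every MMF sample (49.4, 59.3 and 50.0 against 61.6, 75.1 and 85.7, limma adjusted p = 0.096). Of the markers of other cells, Cd3e, Cd8a and Cd2 of T cells and Cd79a of B cells had no promoter peak in any list. The erythroid gene Klf1 (115.3, 105.6 and 132.2 in control, 104.5, 104.8 and 113.8 with MMF) and the megakaryocyte genes Pf4 and Itga2b had peaks in all 6 lists, and 0 of these 3 were called (limma, and 0 at an unadjusted p under 0.05). Their part in the results was not tested.

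As a description of likeness, the promoter whose log2 level followed each member most closely over the 6 samples was Wnt10b for Cebpa (Pearson r = 0.998), Strada for Cebpg (0.992), Lca5 for Cebpb (0.984) and Telo2 for Cebpd (0.970). With 6 samples and 10462 promoter regions compared, such values are frequent: between 33 and 208 promoters exceeded 0.9 for each member.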

How the data were processed

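ATAC-seq peak lists of 3 control and 3 MMF-treated L-GMP samples were used, with chromosomes 1 to 19, X and Y. The authors aligned reads to mm10 by Bowtie2 and ran MACS2 per sample (FastQC and Trim Galore are also named); options and versions are not given in the sources used here. The deposited lists give each peak's fold enrichment (a ratio of summit reads to local background), its p and q as −log10 values and a score, which was not used. The reads and the PePr comparison of the authors were not used.

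The whole reads at each summit and the local background were solved from the fold enrichment and the Poisson p, and at least 99.9983% of the peaks of a list gave whole reads (tolerance 0.1 reads, or a −log10 p within 0.001). The median summit held 14 to 19 reads. The level of a peak is its summit reads divided by the genome background of the sample, the reads expected over 150 bp, which was 0.620 to 0.729 in control and 0.676 to 0.909 in MMF samples. Peaks were merged at an overlap of 1 bp, a region took the highest peak of each sample, and limma 3.58.1 in R 4.3.3 tested the log2 level of 41182 regions without a block or pseudocount, at an adjusted p of 0.05. On data simulated for this comparison, only 200 of 41182 regions were shifted at a time. It recovered 0 of 200 regions shifted by 0.5, 128 of 200 shifted by 1 and 196 of 200 shifted by 1.5 (log2). With so few shifted the adjustment was stricter than in the data, so these counts are not the power there. Python 3.11.15, pandas 2.3.3, scipy 1.17.1 and pysam 0.24.0 were used. Named were the promoters, the Cebpa and Cebpe elements, gained, lost and called regions, some of the 3 highest other regions of each gene, and of the 3 closest promoters by Pearson r the first. Part of the marker list is not reported here. The members and lists were chosen with earlier results of these data known. The 10 kb measure, eBayes trend, ranks among shared regions and the median of differences set to 0 were added after seeing the data. Read numbers speak to counting error only, and reads without molecular identifiers are not independent molecules.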

Additional observations from a re-analysis of the deposited data

How the results depend on the processing

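Peak calls depend on depth and list length, and reads under the peak threshold were not seen. In simulated data with only 200 of 41182 regions shifted, 0 of 200 differences of 0.5 (log2) were called. In the data 7643 regions were called higher and 399 lower, so the adjustment was less strict there. The simulation therefore does not give the power of the test as run. Gained regions numbered 7, and 1 at equal list length (1.41%, against 2.35% of all regions), 14 when 2 of 3 samples were enough (16.5%, against 13.6%), and 7 to 13 with a sample left out, with 13 without MMF sample 3. Lost regions numbered 0, and 1 when 2 of 3 samples were enough (against 1.02% of all regions), and 0 to 1 with a sample left out, with 1 without control sample 3. The regions called higher (8, 22.9%, against 18.6% of all shared regions) were 4 with sample medians set to 0 (11.4%, against 6.9%). They were 0 with ranks among shared regions (against 1.44%). Ranks by fold called 2, ranks by −log10 p 4 and the median difference set to 0 called 4. With a sample left out 5 to 6 were called (5 without control sample 3 or any 1 MMF sample). For these last settings the share over all shared regions is not given here, so the counts show no change particular to these loci. The 0 called lower (against 0.969% of all shared regions) were 6 with sample medians set to 0 (17.1%, against 13.9%). They were 1 with ranks among shared regions (2.86%, against 0.425%) and 3 within 10 kb (8.57%, against 5.89%). The eBayes trend called 3 lower, and the fits with any sample left out 0, where the share over all shared regions is not given here. Differences in peaks per locus at equal list length were 1.33 for Cebpa, 2 for Cebpb, 0.333 for Cebpd, 0 for Cebpe and 1.33 for Cebpg, and 2 for Cebpe with 30 kb on either side.

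Differences whose sign turned were those of Cebpe +5.5 kb (−0.17 with ranks among shared regions), the Cebpd promoter (−0.074 with ranks by fold, −0.16 with sample medians set to 0, −0.42 with ranks among shared regions), the Cebpb promoter (0.15 with ranks by fold, 0.071 with ranks by −log10 p), the Cebpg promoter (0.044 with ranks by −log10 p, 0.073 within 10 kb) and Cebpa +37.3 kb (−0.23 with ranks by fold, −0.17 with sample medians set to 0, −0.59 with ranks among shared regions). Ranks were turned into normal scores (quantiles of a normal distribution) before the fit. The values with ranks are therefore not log2, while the others are, and their sizes cannot be compared. The cause was not tested.

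Same-numbered control and MMF samples did not deviate together (r = −0.0013, 0.0039 and −0.0026). Summits held a median of 14 to 19 reads, so these values cannot exclude a shared culture or batch. With the replicate number as a block, 7 regions were called higher and 0 lower, and over all shared regions 6924 and 294.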
